A study of Mus musculus with 3 samples.

Results

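The transcripts described here are 10 noncoding RNAs chosen by name, Gas5, Snhg1, Snhg3, Snhg5, Snhg6, Snhg8, Snhg12, Snhg15, Zfas1 and Dancr, out of 41743 gene symbols in the deposited tables. All 10 had a row and passed the filter on low counts, as did 12478 symbols in all. RNA was recovered from K7M2, a mouse osteosarcoma cell line, by immunoprecipitation and sequenced (RIP-seq). Endogenous ezrin had been removed by CRISPR editing and was replaced with a stably transfected T567A ezrin cDNA; the submitters' name for these lines is COL3A. Every library carries this genotype and none was treated. There are 2 libraries from an anti-ezrin antibody (ezrin replicates 1 and 2) and 1 from normal mouse IgG, the background of the method. Whether the line is 1 clone, which promoter drives the transgene, and whether the ezrin replicates are separate cultures are not stated in the labels. The p-values thus measure only the spread between these samples, which may be technical. In the edgeR fit that spread was pooled over genes, so an SE is not a transcript's own replicate spread.

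Small nucleolar RNAs (snoRNAs) guide chemical modification and cleavage of ribosomal RNA, and most mammalian snoRNAs are cut out of the introns of a longer host transcript. In a noncoding host, the spliced exons are exported and many are then degraded by nonsense-mediated decay when ribosomes engage them. Many hosts belong to the TOP class, named for a terminal oligopyrimidine tract, a run of C and T (U in the RNA) at the very start of the transcript that is shared with ribosomal protein messages and ties their translation to mTOR signalling. The comparison of the ezrin libraries with IgG asks which RNAs are recovered with T567A ezrin, a closed form, above the IgG background. It cannot tell direct binding from recovery in a complex, and no library holds another form of ezrin.

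The start sequences are shown because the TOP tract is what defines the class. They are from RefSeq, build GRCm38.p6, which held 10 starts for 9 of the 10 hosts. Each line gives 25 bases before and 25 from the annotated start, and capitals mark a C followed by at least 4 pyrimidines, the letters searched for.
Gas5, second start, chr1:161035141-161035190, plus strand: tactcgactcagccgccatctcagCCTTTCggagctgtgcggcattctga
Snhg8, chr3:123508312-123508361, minus strand: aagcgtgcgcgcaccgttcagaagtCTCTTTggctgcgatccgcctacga
Snhg12, chr4:132308653-132308702, plus strand: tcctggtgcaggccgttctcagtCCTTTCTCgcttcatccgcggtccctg
Snhg3, chr4:132353662-132353711, minus strand: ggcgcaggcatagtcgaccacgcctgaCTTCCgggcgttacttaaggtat
Snhg5, chr9:88522873-88522922, minus strand: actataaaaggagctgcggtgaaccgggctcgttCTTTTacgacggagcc
Zfas1, chr2:167062909-167062958, plus strand: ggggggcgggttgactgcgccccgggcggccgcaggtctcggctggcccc

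The stretch began within 5 bases at 4 of the 10 annotated starts, those of Snhg3, Snhg8 and Snhg12 and the second start of Gas5. The first start of Gas5 had no match in this window or in the wider one. The same match, on the transcribed strand, was present at 18.3% of all 32851 starts in the table and at 42.5% of 73 starts of cytosolic ribosomal protein genes. With 20 bases either side, a window added after the sequences were seen, Snhg5 and Dancr matched as well, making 6 of 10 starts, against 49.4% of all starts and 76.7% of ribosomal protein starts. Zfas1, Snhg1 and Snhg15 had no match in either window. A match is a description of letters around an annotated start, and annotated starts can lie away from the base where transcription begins.

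Counts totalled 19676595, 16196329 and 10124580 in ezrin replicate 1, ezrin replicate 2 and IgG. Protein-coding genes held 97.0% and 97.5% of the ezrin counts but 74.1% of the IgG counts, whose remainder was largely ribosomal RNA remnants and structured RNAs. Levels are given as CPM, counts scaled to a common total with TMM, a scaling that sets aside the genes that differ most. All 15 mitochondrial transcripts tested and both ribosomal RNA remnants tested were called lower in the ezrin libraries. The osteoblast markers Col1a2, Sparc, Spp1 and Col1a1 had at least 721 counts in every library, and Col1a2, Sparc and Spp1 were called higher in the ezrin libraries. Runx2 (755, 600 and 584 counts) and Alpl (28, 17 and 33) were called lower, and Ibsp, Bglap and Sp7 had at most 1 count. Defining markers of macrophages other than Csf1r, and of epithelial, endothelial and antibody-producing B cells other than Sdc1, had at most 16 counts in any library.

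Of the 10 hosts, Zfas1 and Snhg5 were higher in the ezrin libraries than in IgG and the other 8 were not called in either direction. Summed over the 10 hosts, the level was 419 and 524 CPM in ezrin replicates 1 and 2 against 409 CPM in IgG. As a share of all counts this was 0.0428% (95% exact Clopper-Pearson interval 0.0419 to 0.0437), 0.0543% (0.0532 to 0.0554) and 0.0386% (0.0374 to 0.0399), intervals that cover counting error only. Taken over protein-coding and host counts alone, the shares were 0.0441%, 0.0556% and 0.0521%, so that IgG lay between the ezrin libraries. On the first scale both ezrin libraries lay above IgG, and on the second the groups overlapped.

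The quasi-likelihood test of edgeR, adjusted by Benjamini-Hochberg over all 12478 genes at 0.05, called 2 hosts higher and 0 lower. Over all genes the same test called 36.4% in either direction, 19.0% higher and 17.4% lower, so 2 of 10 is close to the background share. At an unadjusted edgeR p under 0.05, 3 hosts were higher and 1 lower. The share of all genes at that threshold was not computed, but it cannot be below the adjusted 36.4%. DESeq2 called 1 host higher and 0 lower, against 14.0% and 8.8% of all genes. The median log2 fold of the 10 hosts was 0.067, against −0.020 over all genes tested. Without a test, 5 hosts had both ezrin libraries above IgG and 4 had both below, where 42.6% and 44.3% of all genes did so, and Snhg3 overlapped.

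**Figure D1:**
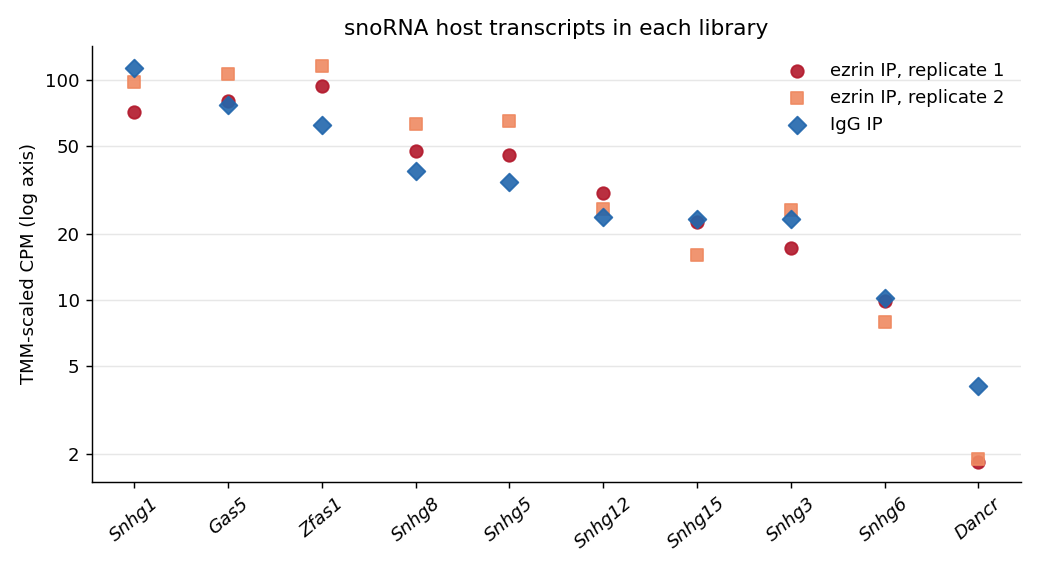
TMM-scaled CPM (log axis) of the 10 host transcripts in ezrin replicate 1 (circles), ezrin replicate 2 (squares) and IgG (diamonds), ordered by the IgG level. Zfas1, Snhg5, Snhg8, Gas5 and Snhg12 have both ezrin points above IgG. Snhg1, Dancr, Snhg6 and Snhg15 have both below, and Snhg3 has them on either side. The levels run from about 2 CPM for Dancr to about 100 CPM for Zfas1, Gas5 and Snhg1.

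Zfas1, a transcript that runs antisense to the start of Znfx1 and carries Snord12 family snoRNAs (chromosome 2, 167062934 to 167065862), stood at 93.3 and 116 CPM in the ezrin libraries (104 ± 15.7, SD, n = 2) and 62.5 CPM in IgG (n = 1). Both ezrin values were above IgG, by more than they differed from each other. The log2 fold was 0.74 (SE 0.25, edgeR adjusted p = 0.0116), a 1.67-fold rise with a 95% interval of 1.19 to 2.35. The call was lost after cyclic loess (adjusted p = 0.0527) and when only protein-coding and host rows were scaled by library size (adjusted p = 0.116).

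Snhg5, the host of U50 snoRNAs (chromosome 9, 88521052 to 88522897), stood at 45.4 and 64.6 CPM (55.0 ± 13.6, SD, n = 2) against 34.3 CPM. Both ezrin libraries were above IgG, and replicate 2 was further from replicate 1 than replicate 1 was from IgG. The log2 fold was 0.68 (SE 0.26, edgeR adjusted p = 0.0277), or 1.60-fold (95% interval 1.13 to 2.28). The call was lost with DESeq2 (adjusted p = 0.108), with a filter of 10 CPM on the mean over libraries (0.0675), after cyclic loess (0.0721) and with protein-coding and host rows only (0.198).

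Snhg8, a short host that carries Snora24 (chromosome 3, 123507552 to 123508336), had the highest level per length of the 10 and stood at 47.2 and 62.7 CPM (55.0 ± 10.9, SD, n = 2) against 38.6 CPM. It went the same way in both ezrin libraries but missed the threshold, at 0.51 on the log2 scale (SE 0.26, edgeR adjusted p = 0.106). It was called with library size as the only scaling (adjusted p = 0.0430) and with limma on log2(RPKM + 1) (adjusted p = 0.0181). Of the 4 hosts with a match within 5 bases of a start, edgeR and DESeq2 each called 0, and limma on RPKM called Snhg8 alone. Snhg8 alone had an unadjusted edgeR p under 0.05. Over all genes, edgeR called 19.0% higher and 17.4% lower, DESeq2 14.0% and 8.8%, and limma on log2(RPKM + 1) 29.9% and 7.7%. Counts out of 4 are too few to set apart from these shares.

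Gas5, named for its accumulation in growth-arrested cells and the host of several box C/D snoRNAs (chromosome 1, 161034601 to 161038539), stood at 80.3 and 106 CPM (93.3 ± 18.3, SD, n = 2) against 76.7 CPM. Replicate 1 was almost level with IgG, and the fold of 1.22 had a 95% interval of 0.872 to 1.69 (edgeR adjusted p = 0.380). Snhg12, which holds Snora44, Snora61 and Snord99 (chromosome 4, 132308678 to 132311024), stood at 30.5 and 25.9 CPM against 23.7 CPM. Its 1.19-fold difference spanned 0.834 to 1.70 (edgeR adjusted p = 0.475). Snhg3, the host of the U17 snoRNAs Snora73a and Snora73b (chromosome 4, 132351933 to 132353686), stood at 17.3 and 25.6 CPM on either side of 23.2 CPM in IgG. Its fold was 0.922 (95% interval 0.646 to 1.32, edgeR adjusted p = 0.756), and it was the only host whose 2 groups overlapped.

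Snhg1, the host of Snord22 and other box C/D snoRNAs (chromosome 19, 8723487 to 8726326), was the most abundant host in IgG, at 112 CPM, against 71.1 and 97.9 CPM in the ezrin libraries (84.5 ± 19.0, SD, n = 2). Both ezrin values lay below IgG, but the log2 fold of −0.41 (SE 0.24, edgeR adjusted p = 0.163) was not called. It was called lower with the 10 CPM filter (adjusted p = 0.0488) and with protein-coding and host rows only (adjusted p = 0.0119). Snhg15, a stress-responsive host (chromosome 11, 6525591 to 6528760), stood at 22.5 and 16.0 CPM against 23.2 CPM and had a fold of 0.831 (95% interval 0.583 to 1.19, edgeR adjusted p = 0.444). Snhg6, which holds Snord87 (chromosome 1, 9942025 to 9944118), stood at 9.92 and 7.93 CPM against 10.2 CPM, a fold of 0.873 (0.568 to 1.34, edgeR adjusted p = 0.661).

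Dancr, named for holding back cell differentiation and the host of Snora26 (chromosome 5, 74093060 to 74094337), was the rarest, with 37, 32 and 39 counts in ezrin replicate 1, ezrin replicate 2 and IgG. These are 1.84 and 1.91 CPM against 4.08 CPM, so the ezrin libraries agreed closely and both lay below IgG. Its log2 fold of −1.12 was the largest in size among the hosts but had an SE of 0.50, and it was not called (edgeR adjusted p = 0.0633). The 95% interval of the fold was 0.235 to 0.906. With protein-coding and host rows only it was called lower (adjusted p = 0.0085).

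**Figure D2:**
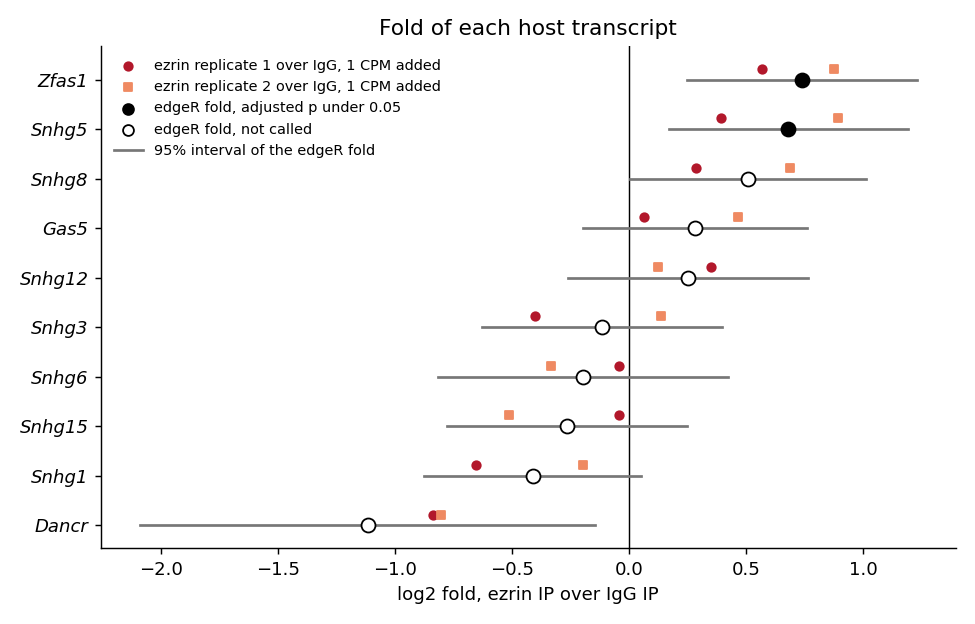
Log2 fold of ezrin IP over IgG IP for each host, with large circles for the edgeR fold (filled where the adjusted p is under 0.05), grey lines for its 95% interval, and small marks for each ezrin library over the single IgG library with 1 CPM added to both sides. The filled circles are Zfas1 at 0.74 and Snhg5 at 0.68, and the interval of Dancr is the widest.

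Set beside the shared IgG library with 1 CPM added, the ratios of Zfas1 were 0.57 and 0.88 on the log2 scale in ezrin replicates 1 and 2, those of Snhg5 0.40 and 0.90, and those of Snhg8 0.29 and 0.69. In 7 hosts the ratio was larger in replicate 2 and in 3 it was larger in replicate 1. Between the ezrin libraries themselves, 6 hosts were higher in replicate 2 beyond counting error (exact 95% intervals), Gas5, Snhg1, Snhg3, Snhg5, Snhg8 and Zfas1. Snhg12 and Snhg15 were higher in replicate 1 by the same measure, and Snhg6 and Dancr did not differ beyond it. The widest gaps were 0.56 for Snhg3 and 0.51 for Snhg5 upward and 0.50 for Snhg15 downward in replicate 2. Over the 8603 genes whose mean reached 10 CPM, the SD of this log2 ratio was 0.29, and 7.17% of genes exceeded 0.5 in size.

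RPKM, which divides by gene length, allows levels to be ordered between hosts. In the ezrin libraries Snhg8 was highest at 46.5 and 63.3 RPKM, followed by Zfas1 at 41.2 and 52.3, whose range overlapped it. Snhg1 came next at 20.1 and 28.4, clear of Zfas1, then Gas5 at 17.9 and 24.3, Snhg3 at 14.7 and 22.3, Snhg5 at 10.5 and 15.3 and Snhg12 at 10.7 and 9.30, each of which overlapped its neighbour. Snhg6 at 7.26 and 5.96 and Snhg15 at 7.13 and 5.19 RPKM formed a lower pair with overlapping ranges, and Dancr, at 0.659 and 0.700, was last. In IgG the order was Snhg8 (29.3 RPKM), Snhg1 (24.6), Zfas1 (21.3), Snhg3 (15.3), Gas5 (13.2), Snhg12 (6.41), Snhg5 (6.12), Snhg6 (5.80), Snhg15 (5.68) and Dancr (1.13). Snhg8 was first and Dancr last in all 3 libraries, while Zfas1 and Snhg1 changed places.

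The length that the authors' RPKM implies shows what was counted. It was 3760 bases for Gas5 (95.5% of its RefSeq span, introns included), 2402 for Snhg12 (102%), 2969 for Snhg1 (104.5%) and 853 for Snhg8 (109%). It exceeded the span in Snhg5 (3634 bases, 197%) and Dancr (2347 bases, 184%), and was shorter in Zfas1 (1901 bases, 64.9%), Snhg3 (986 bases, 56.2%), Snhg6 (1146 bases, 54.7%) and Snhg15 (2652 bases, 83.7%). In 6 of the 10 hosts the counted length was thus at least 90% of the whole span, so their counts can include intronic bases, and spliced and unspliced host RNA could not be told apart. Snhg5 and Dancr, at 197% and 184%, are among these 6. Their counts and folds can therefore also include bases outside the RefSeq span. The RPKM order between hosts depends on these lengths, whereas folds within a host do not.

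The snoRNAs inside the hosts were nearly all unmeasured. RefSeq places 31 snoRNA genes within the 10 spans, of which 12 had a row of the same name and 3 of those had any count: Snora73a, Snora73b and Snord22. Among all 150 rows named Snord, Snora or Scarna, 18 had a count. Of the 111 under 120 bases long, 2 reached 10 counts over the 3 libraries. Snord22 had 6, 1 and 0 counts and was not tested.

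The U17 snoRNAs within Snhg3 were far lower in the ezrin libraries. Snora73b (chromosome 4, 132352322 to 132352526, GRCm38) stood at 14.4 and 6.44 CPM in the ezrin libraries and 95.0 CPM in IgG, and Snora73a (132352775 to 132352979) at 9.67 and 3.70 against 42.7 CPM. All ezrin values lay below IgG, while those of the host Snhg3 lay on either side of it; the difference between host and snoRNA was not tested. Snora73b fell 9.06-fold (log2 fold −3.18, SE 0.25, edgeR adjusted p = 1.41e-35) and Snora73a fell 6.32-fold (−2.66, SE 0.26, edgeR adjusted p = 1.39e-22; DESeq2 adjusted p = 0.0554). The edgeR SEs are pooled over genes and do not reflect the gap between the ezrin libraries at each snoRNA. Within a library, which removes the scaling, Snora73b had 4.09 counts per Snhg3 count in IgG and 0.830 and 0.252 in the ezrin libraries. The same ratio for Snora73a was 1.84 against 0.559 and 0.145. The 2 snoRNAs are close copies and lie inside Snhg3, and how shared reads were assigned is not stated. Other structured RNAs were also lower. The list of 7SL, 7SK and related RNAs summed to 10228 and 4769 CPM in ezrin replicates 1 and 2 against 65858 CPM in IgG, and all 4 measured were called lower. Their part in the Snora73 values was not tested.

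**Figure D3:**
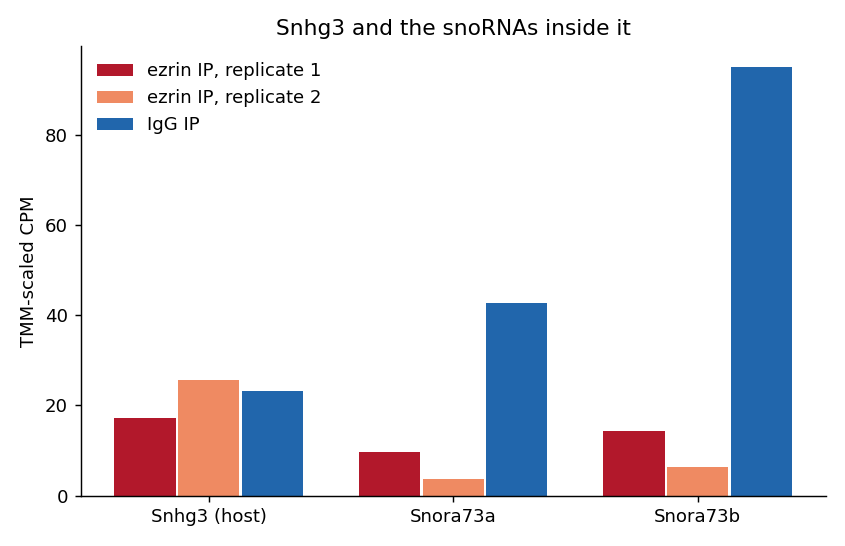
TMM-scaled CPM of Snhg3 and of Snora73a and Snora73b, which lie within its span, in ezrin replicate 1, ezrin replicate 2 and IgG (bars, from 0, 1 library each). The Snhg3 bars are between 17.3 and 25.6 CPM, whereas IgG exceeds both ezrin libraries at each snoRNA.

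Protein-coding genes that overlap or adjoin a host were tested in the same fit. At the Gas5 locus, Zbtb37 on the opposite strand, which shares 264 bases of span with Gas5, was lower (14.0 and 13.9 CPM in the ezrin libraries against 30.7, log2 fold −1.14, SE 0.26, edgeR adjusted p = 7.75e-05), while Gas5 was not called. The call of Zbtb37 was lost with limma on log2(RPKM + 1) (adjusted p = 0.0568). Slc3a2, which encodes the heavy chain of amino acid transporters, starts 117 bases from Snhg1 on the other strand and was higher (436 and 402 CPM against 271, log2 fold 0.63, edgeR adjusted p = 0.0209), although the call was lost after cyclic loess (adjusted p = 0.459), with the 10 CPM filter (0.0506) and with protein-coding and host rows only (0.186), and Snhg1 had a fold below 1. Znfx1, an RNA helicase gene that shares 82 bases with Zfas1 on the opposite strand, stood at 354 and 329 CPM against 299 CPM, which did not pass (0.19 on the log2 scale, edgeR adjusted p = 0.540), nor was Trnau1ap beside Snhg12 (−0.20, edgeR adjusted p = 0.563). Mcmdc2, which spans part of Snhg6, and Prss12 near Snhg8 had at most 9 counts in any library. Whether counting used strand is not given, so reads at the shared bases of overlapping genes could not be assigned with certainty.

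Of all 522 long noncoding RNAs tested, the hosts included, 10 (1.92%) were called higher and 152 (29.1%) lower, against 19.0% and 17.4% of all genes. The filter on low counts could be passed through a single library, IgG or ezrin, so both numbers are partly set by it. BC039966, called higher, had 17, 24 and 0 counts in ezrin replicate 1, ezrin replicate 2 and IgG. Zfas1 and Snhg5 were the most abundant of the 10 higher. The next, 2010204K13Rik, had a mean of 8.26 CPM, and Gm28042 had counts in ezrin replicate 2 only (0, 27 and 0). Limited to those whose mean reached 10 CPM, a limit set after the results were seen, the 45 long noncoding RNAs other than the hosts gave 0 higher and 24 lower by edgeR (1 higher at an unadjusted p under 0.05, 0 by DESeq2 and 1 by limma on log2(RPKM + 1)), with a median log2 fold of −0.72. The number lower was 14 with DESeq2 and 12 with limma on log2(RPKM + 1), where the median was −0.30. Of all genes, 8.8% and 7.7% were called lower in these settings. The 8 hosts at that level gave 2 higher and 0 lower in the same test. The mean is over all 3 libraries, so an RNA could pass through a high IgG value alone. Kcnq1ot1, called lower, did so at 3.79 and 4.65 CPM in the ezrin libraries against 128 in IgG. The number lower and the median are thus partly set by the limit, and the contrast with the hosts was not tested. Among 7 measured nuclear-retained RNAs, 0 were higher (also at an unadjusted p under 0.05) and 6 lower, with a median of −2.12, including Malat1 (−4.99) and Xist (−4.69).

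The 8 other noncoding snoRNA and microRNA hosts tested gave 0 higher and 4 lower by edgeR (0 higher at an unadjusted p under 0.05 and by DESeq2, 1 higher with limma on log2(RPKM + 1)), with a median log2 fold of −0.67. The number lower was 2 with DESeq2, with library size only and with limma on log2(RPKM + 1), where the median was −0.21. Of all genes, 8.8%, 14.1% and 7.7% were called lower in these settings. Over all genes edgeR called 19.0% higher and 17.4% lower. Snhg17 was lower (17.5 and 16.9 CPM in the ezrin libraries against 48.4, log2 fold −1.49, SE 0.25, edgeR adjusted p = 3.93e-08), as was Mir17hg, the precursor of the miR-17 cluster (2, 10 and 35 counts, −3.43, edgeR adjusted p = 1.26e-05). Snhg20 (−0.80) and Mir22hg (−0.82) were called lower by edgeR with adjusted p = 0.0268 and 0.0232, and not by DESeq2 (adjusted p = 0.243 and 0.232). Snhg16 (−0.54), Epb41l4aos (0.41), Snhg10 (0.53) and Snhg18 (0.10) were not called.

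**Figure D4:**
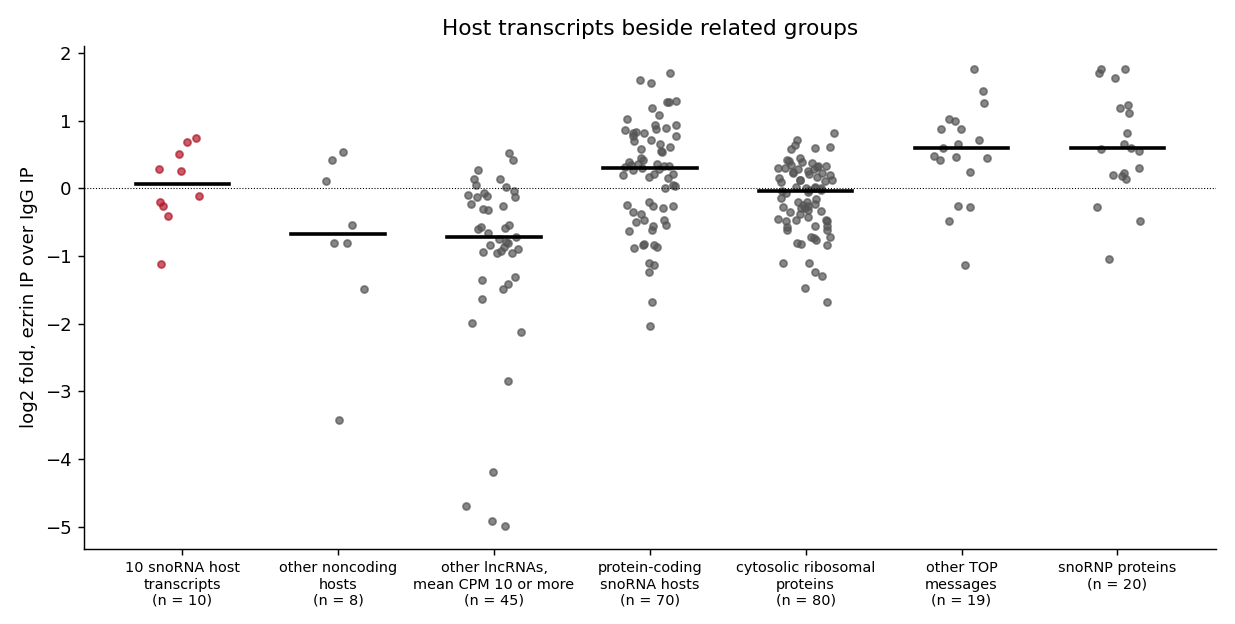
Log2 fold of ezrin IP over IgG IP for every tested gene of 7 groups, with 1 point per gene and a black line at the group's median. The 10 hosts centre on 0.067 and the ribosomal proteins on −0.046, whereas the other long noncoding RNAs centre on −0.72 and the other TOP messages on 0.60. The long noncoding RNAs passed a limit on a mean that includes IgG, which partly sets their median.

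Messages that share the TOP class or the snoRNA-hosting arrangement with the hosts did not all go one way. Over all genes edgeR called 19.0% higher and 17.4% lower. These shares were 17.8% and 17.2% after cyclic loess, and 12.5% and 27.3% with protein-coding and host rows only. The median of all genes was −0.021 and −0.24 in these settings. Of 80 cytosolic ribosomal protein messages, 6 were higher and 16 lower with a median of −0.046, and Rpl3 (0.81) and Rps12 (−1.68) marked their range among called genes. The most abundant of them were Rpl4 (0.58, called higher) and Rpl8 (0.28, not called). This median turned to 0.073 with library size only and 0.34 with log2(RPKM + 1), and to −0.46 after cyclic loess, when 0 were higher and 31 lower. With protein-coding and host rows only it was −0.32, with 1 higher and 34 lower. Relative to the median of all genes it was −0.027 with library size only and 0.11 with log2(RPKM + 1). On the same footing it was −0.44 after cyclic loess and −0.081 with protein-coding and host rows only. Of 19 other TOP messages, 10 were higher and 1 lower with a median of 0.60, led by Hnrnpa1 (1.76), an RNA-binding protein, and with the elongation factor Eef1a1 at 0.87 and the intermediate filament gene Vim at 1.43, while Tpt1 fell by 1.14 on the log2 scale. After cyclic loess 3 were higher and 4 lower, with a median of −0.030, and with protein-coding and host rows only 7 were higher and 4 lower, with a median of 0.33. Of 70 protein-coding genes whose span holds a named snoRNA, found without strand, 25 were higher and 13 lower with a median of 0.30 (−0.041 after cyclic loess, with 12 higher and 23 lower, and 0.030 with protein-coding and host rows only, with 16 higher and 23 lower). Atp5b, an ATP synthase subunit (1.70), and the elongation factor Eef2 (1.03) were among the higher and Rc3h2, an RNA-binding ubiquitin ligase (−2.04), was the lowest.

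Messages for the proteins that act on hosts and snoRNAs held more genes called higher than called lower. Over all genes edgeR called 19.0% higher and 17.4% lower, or 12.5% and 27.3% with protein-coding and host rows only. Of 20 snoRNP core proteins and assembly factors, 10 were higher and 1 lower with a median of 0.59. Fbl, the methyltransferase fibrillarin, stood at 403 and 514 CPM against 202 CPM and was called higher (log2 fold 1.18, SE 0.24, edgeR adjusted p = 8.43e-06). The assembly helicase Ruvbl2 (1.76) was higher as well, whereas Snu13, a box C/D core protein, fell by 1.05 on the log2 scale. Of 18 nonsense-mediated decay and exon junction factors, 8 were higher and 1 lower with a median of 0.35. The helicases Eif4a3, of the exon junction complex (1.61), and Upf1, the core decay factor (1.28), were higher. The kinase Smg1 (−0.34) was not called. Of 13 coding messages known as targets of that decay, 5 were higher and 1 lower with a median of 0.31, among them Gadd45b, a stress-response gene (1.36), the splicing factor Srsf3 (1.09) and Slc7a11, the cystine transporter (−0.63), with the stress transcription factor Atf4 not called (0.14). With protein-coding and host rows only, the medians were 0.32 for the snoRNP proteins (7 higher, 2 lower), 0.075 for the decay factors (7 higher, 3 lower) and 0.041 for the decay targets (5 higher, 1 lower). With log2(RPKM + 1) they were 0.92, 0.64 and 0.58. The median of all genes was −0.24 with protein-coding and host rows only and 0.22 with log2(RPKM + 1).

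Among 11 regulators of TOP messages, 2 were higher (18.2%) and 1 lower (9.09%), against 19.0% and 17.4% of all genes. The share higher is thus close to the background. Their median was 0.14, which turned to −0.041 after cyclic loess and −0.13 with protein-coding and host rows only. Relative to the median of all genes in the same setting, these were 0.16, −0.021 and 0.11. Mtor, the kinase that controls TOP translation (0.94), and Ssb, the La protein (1.12), were higher. Eif4ebp2, a repressor of cap-dependent translation, was lower (−0.97). Larp1, the protein that binds the TOP tract, was not called (−0.02, edgeR adjusted p = 0.956), nor was Cnbp, which also binds such tracts (0.47, edgeR adjusted p = 0.0945).

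With 3 libraries, likeness of pattern could be measured only coarsely. The 5 genes nearest the summed hosts, by Euclidean distance of log2(CPM + 1) centred over the 3 libraries, were Serinc3, Napg, Zc3h11a_1, Acvr1 and Rad21, at distances of 0.00797 to 0.0188. As many as 188 of 8596 genes compared lay within 0.1.

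The calls of single hosts shifted with the processing. The median of all genes moved to 0.10 with library size only, to 0.22 with log2(RPKM + 1), to 0.34 with log2(RPKM + 0.1) and to −0.24 with protein-coding and host rows only. Relative to that median, the log2 fold of Zfas1 stayed between 0.60 and 0.87 over the 10 settings and that of Snhg5 between 0.59 and 0.72. Relative to the same median, Snhg1 lay between −0.56 and −0.26 over the 10 settings. Dancr, in the 9 settings that kept it, lay between −1.15 and −0.56.

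**Figure D5:**
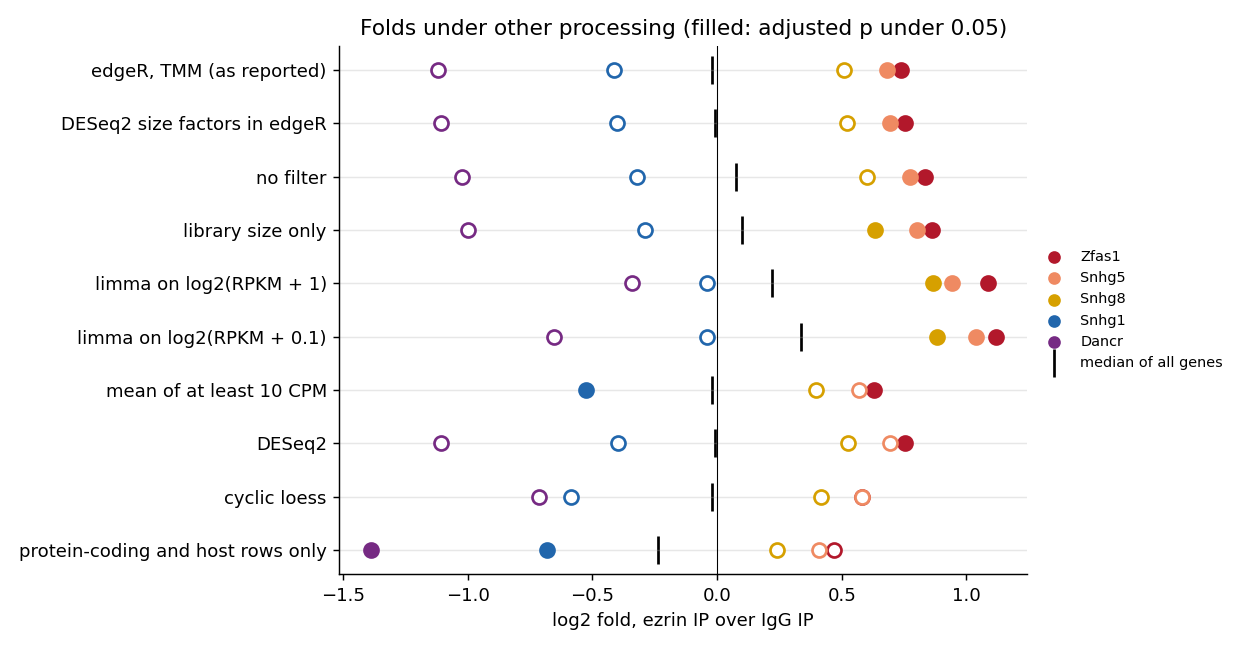
Log2 fold of ezrin IP over IgG IP for Zfas1, Snhg5, Snhg8, Snhg1 and Dancr under 10 ways of processing, filled where the adjusted p is under 0.05, with a vertical tick at the median of all genes. Zfas1 and Snhg5 lie right of the tick and Snhg1 and Dancr left of it in every row that holds them, while the filled points change with the setting.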

How the data were processed

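RNA from anti-ezrin and normal IgG immunoprecipitates of K7M2 cells was sequenced after ribosomal RNA depletion, per the labels' protocols; the labels also name polyA RNA. The authors deposited raw read counts per gene symbol and RPKM values for each library. The build was GRCm38, per the submitters' processing notes; the sources used here do not give the aligner, counter, annotation or use of strand. Counts of all genes were tested with edgeR 4.0.16 in R 4.3.3 (TMM, filterByExpr by group, quasi-likelihood, Benjamini-Hochberg at 0.05), with 1 residual degree of freedom, so IgG, being 1 library, is taken to vary as the ezrin pair does. The fit gave a gene's own spread no weight beside the spread shared over genes (prior degrees of freedom infinite). The 95% intervals of folds come from the resulting SE. Alternatives used DESeq2 1.42.0, limma 3.58.1, other scalings and filters. Gene spans and starts came from RefSeq, whose gene table held no strand, so snoRNAs were assigned to hosts by span alone. The hosts and lists were chosen with earlier results of these data known. Named genes were all 10 hosts, counted snoRNAs inside them, tested neighbours, the 5 genes of most similar pattern and, per list, the 2 most abundant and the largest called rise and fall; for the other noncoding hosts all tested genes, and Mtor, were added after their values were seen, as was the limit of 10 CPM on long noncoding RNAs. Some genes that the rule would name are not reported here. The scripts were tested on simulated data.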

Additional observations from a re-analysis of the deposited data

How the results depend on the processing

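The calls depended on the tool, the filter, the unit and the scaling. Beside each count stands the share of all genes called in that direction under the same setting. Of the 10 hosts, the number called higher was 2 with edgeR and TMM (19.0%) and 2 with DESeq2's size factors in edgeR (19.2%), 1 with DESeq2 (14.0%), 0 after cyclic loess (17.8%; adjusted p of 0.0527 for Zfas1 and 0.0721 for Snhg5), 1 of 8 at a mean of at least 10 CPM (21.4%) and 0 with protein-coding and host rows only (12.5%). It was 3, with Snhg8 added, with library size only (23.0%) and with limma on log2(RPKM + 1) (29.9%) and log2(RPKM + 0.1) (30.0%). The number called lower was 0, except 1 of 8 at a mean of at least 10 CPM (Snhg1; 21.7%) and 2 with protein-coding and host rows only (Snhg1 and Dancr; 27.3%). The median log2 fold of the hosts, 0.067, became 0.19 with library size only, 0.40 with log2(RPKM + 1), 0.44 with log2(RPKM + 0.1), 0.15 at a mean of at least 10 CPM (a filter that left out Snhg6 and Dancr), 0.16 with no filter, −0.20 with protein-coding and host rows only and −0.013 after cyclic loess. Left with 1 ezrin library it was 0.012 or 0.13, values with no test. Signs turned for Snhg12 (−0.021, protein-coding and host rows only) and for Snhg15 (0.097 and 0.087, RPKM + 0.1 and + 1). They also turned for Snhg6 (0.18 and 0.16, the same) and Snhg3 (0.0049 with library size only, 0.25 and 0.23 with RPKM). Trnau1ap (0.16 and 0.15, RPKM) and Znfx1 (−0.20 after cyclic loess, −0.082 with protein-coding and host rows only) turned as well. Relative to the median of all genes in the same setting, Snhg12 stayed above (0.22). Snhg15 (−0.24 and −0.13) and Snhg6 (−0.16 and −0.064) stayed below it. Snhg3 lay below it with library size only (−0.095) and RPKM + 0.1 (−0.090) but above with RPKM + 1 (0.015). After cyclic loess Znfx1 lay below it (−0.20 against −0.021). The causes were not tested.

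No paired analysis was possible because the groups share fewer than 2 replicate numbers. IgG is 1 library, so its own spread is unknown and it could not be left out. At 37, 32 and 39 counts, Dancr is limited by depth.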
